A study of Mus musculus with 71 samples.

Results

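The epithelium of the jejunum was compared with that of the duodenum in wild-type (WT) mice. The comparison rests on the libraries labelled as WT intestinal epithelial cells (IECs) of these segments, 3 jejunal and 3 duodenal, which are 6 of the 16 IEC libraries and of the 71 samples in the series. The mice were C57BL/6 littermates of Btnl2-knockout (KO) animals, in which a LacZ cassette disrupts the gene for butyrophilin-like 2, a surface protein of gut epithelium related to the B7 family. The WT mice carried no transgene and received no treatment, and were 7 weeks old by the labels. By the study's methods they were females, cohoused with the KO mice. The small intestine was cut into equal proximal, middle and distal parts, so that "duodenum" here is the proximal part and holds more than the anatomical duodenum. Epithelium was released with EDTA and collected from the upper layer of a density gradient, without sorting, and the labels do not tell which animal gave which library. The p-values below therefore measure only the spread between these libraries.

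The small intestine takes up different nutrients along its length. Proximal enterocytes are known for the uptake of iron, fat and vitamin A and for the first metabolism of foreign compounds, and distal ones for bile acids and cobalamin. Paneth cells at the crypt base store α-defensins, lysozyme and other antimicrobial proteins, and their number and granule content are known to rise towards the ileum, where bacteria are denser. Because the libraries are bulk samples, more cells of a type and more RNA per cell cannot be told apart.

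Total counts were 19956412 to 24282637 in the duodenal and 22523036 to 29153075 in the jejunal libraries. Levels are given as CPM, each count scaled to the TMM-normalized size of its library, in which 3 counts correspond to 0.0947 to 0.166 CPM in these libraries. Epithelial markers were present at a like level in both segments: the 12 pan-epithelial genes summed to 10200 to 13900 CPM in the duodenum and 9910 to 13600 CPM in the jejunum. The segment labels were checked on Pdx1, the transcription factor of the duodenum and pancreas, and on Fabp6, the ileal bile acid binding protein. Pdx1 was measured at 9.47, 4.64 and 1.06 CPM in the duodenal and at 0.158, 0.126 and 0.0553 CPM in the jejunal libraries, and Fabp6 stayed at 20.2 CPM or less in all 6, against 594 and 580 CPM in the WT ileum. A pair of libraries stood apart. Jejunum replicate 3 had 41.3% of its counts on mitochondrial genes, against 16.8 to 25.1% in the other 5. Duodenum replicate 2 held more RNA of pancreatic acinar genes, at a sum of 82.3 CPM against 39.2 and 21.2 CPM in the other duodenal libraries and at most 19.3 CPM in the jejunum.

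Of 12505 genes tested, 40 were called (0.32%), at a Benjamini-Hochberg adjusted p of edgeR's quasi-likelihood test (FDR) below 0.05 and a fold change above 1.5. Of these, 21 were higher (0.168%) and 19 lower (0.152%) in the jejunum. The genes that rose encode α-defensins, inducible nitric oxide synthase, a brush border phospholipase and distal hormones. Those that fell encode enzymes of ester hydrolysis, glucuronidation and alcohol oxidation, and the secreted lectin Reg1. In each of the 40 genes all jejunal libraries lay on one side of all duodenal ones, which also held for 10% (above) and 9.84% (below) of all genes tested. The calls depended on single libraries. Without jejunum replicate 3 edgeR called 0 genes (768 at an unadjusted p below 0.05), and without duodenum replicate 1 it called 0 higher and 1 lower. Without jejunum replicate 1 it called 6 higher and 2 lower, and without jejunum replicate 2 it called 6 and 5. Without duodenum replicate 2 it called 37 and 36, and without duodenum replicate 3 it called 18 and 32. The direction of all 40 was the same in each of these fits. Since the segments did not overlap in these genes, leaving out 1 library could hardly reverse them, so this adds no support. Limma-voom on the same genes called 88 higher and 64 lower. DESeq2, which was run on 17711 genes with its own filter in place of the count minimum, called 173 and 152, and all 40 were among the calls of either tool. Both tools used the same libraries that chose the 40 genes.

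**Figure D1:**
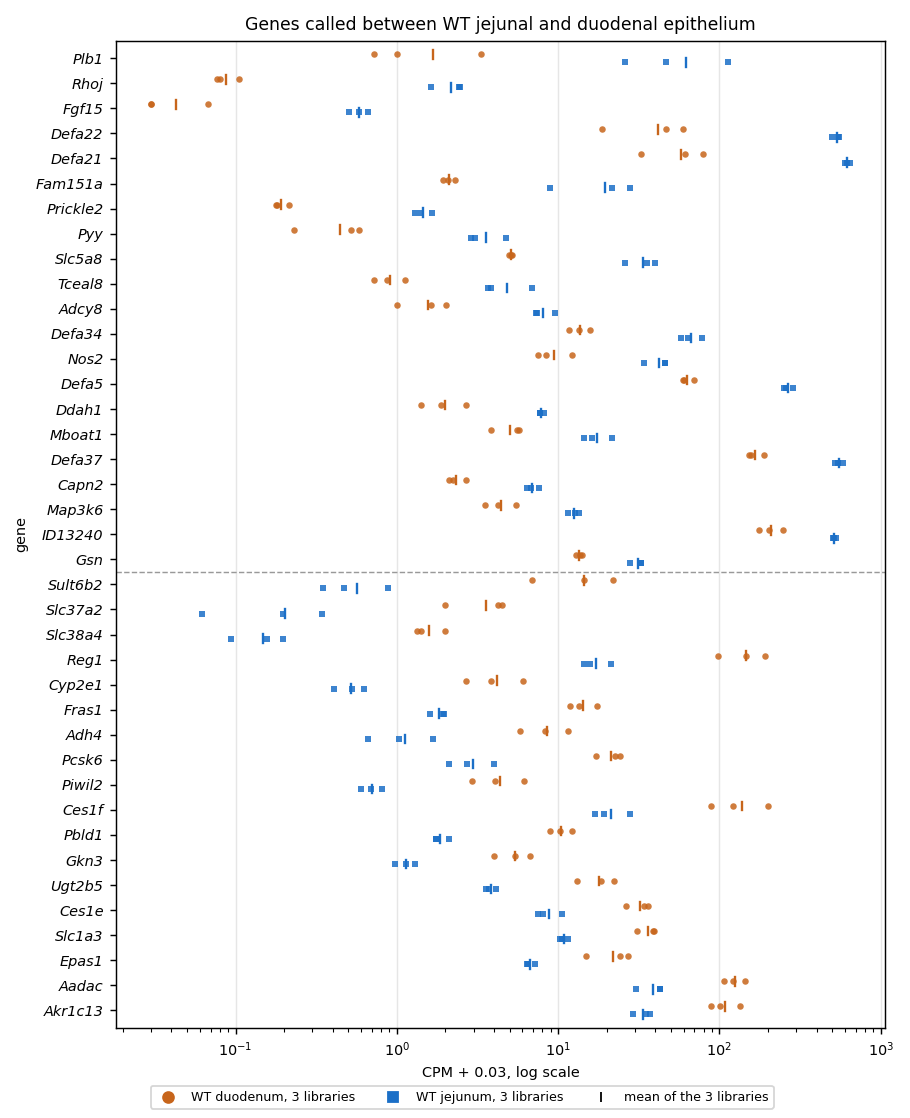
Levels of 39 of the called genes in each of the 3 duodenal (orange circles) and 3 jejunal (blue squares) WT libraries, with the group mean as a bar. The x axis is CPM + 0.03 on a log scale, the dashed line separates the 21 genes higher in the jejunum (top) from 18 lower (bottom), and in no gene do the segments overlap.

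The α-defensins were the largest group among the genes that rose, with 5 of the 21. Their promoters are shown first, since several of these genes are near-identical copies and lie in a cluster on chromosome 8. RefSeq promoters (GRCm38.p6, from 250 bases before to 50 after the gene start) matched 29 of the 40 called genes and 16 of the 31 α-defensin genes of the table. Those of Defa21 (chr8:21025295-21025594, plus strand) and Defa22 (chr8:21162027-21162326, plus strand) were identical over all 300 bases. Defa37 (chr8:21565136-21565435, plus strand) is shown as a called member whose promoter is similar but not identical to that of Defa21 (90.5% of bases at the best ungapped alignment). Reg1 (chr6:78425733-78426032, plus strand) is shown as an antimicrobial gene that fell. Capitals mark 2 motifs, each searched on both strands. The first is CTTTGAT, the recognition sequence of the Wnt effector TCF7L2, which the 3 defensin promoters hold in its reverse complement and that of Reg1 does not hold. The second is TATAAA, the core of the TATA box. The marked matches do not overlap each other.
Defa21 and Defa22: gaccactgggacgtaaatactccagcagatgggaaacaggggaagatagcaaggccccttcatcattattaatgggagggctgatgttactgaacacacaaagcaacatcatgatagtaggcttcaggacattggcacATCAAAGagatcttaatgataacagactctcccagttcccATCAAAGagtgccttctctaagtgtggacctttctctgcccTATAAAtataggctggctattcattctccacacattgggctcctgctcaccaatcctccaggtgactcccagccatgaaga
Defa37: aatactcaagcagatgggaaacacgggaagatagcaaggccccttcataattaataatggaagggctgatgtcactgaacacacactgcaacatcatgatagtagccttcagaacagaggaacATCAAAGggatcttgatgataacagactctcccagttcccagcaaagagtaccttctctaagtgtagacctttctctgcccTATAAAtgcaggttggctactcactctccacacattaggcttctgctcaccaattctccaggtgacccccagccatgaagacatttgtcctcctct
Reg1: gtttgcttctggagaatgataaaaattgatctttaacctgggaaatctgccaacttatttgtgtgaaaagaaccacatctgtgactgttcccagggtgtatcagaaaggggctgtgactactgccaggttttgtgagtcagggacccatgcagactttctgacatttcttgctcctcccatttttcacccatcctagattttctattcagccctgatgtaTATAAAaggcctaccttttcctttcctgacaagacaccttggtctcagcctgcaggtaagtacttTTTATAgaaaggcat

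CTTTGAT was found in 13 of the 16 α-defensin promoters and in 3.73% of all 32851 RefSeq promoters. TATAAA was found in 15 of the 16 and in 13.6% of all promoters. Among the called genes, CTTTGAT stood in the promoters of 5 of the 15 genes with one that rose (Defa21, Defa22, Defa37, Plb1 and Prickle2) and of none of the 14 that fell. Some genes have several promoters. Counted by promoter, as the share over all promoters is, these were 5 of 22 and 0 of 17. The α-defensin promoters are copies of one another, with 11 distinct sequences among the 16, so they are not independent examples. These matches are a description of letters in the window and do not show binding.

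Defa21 (chromosome 8, 21025545 to 21026517) was measured at 61.1, 32.5 and 79.4 CPM in the duodenal and at 614, 648 and 602 CPM in the jejunal libraries. The jejunal libraries lay close together and every one exceeded the highest duodenal library several times over. The level was 10.8-fold higher in the jejunum (log2 fold change 3.44 ± 0.337 SE, edgeR FDR = 0.00974). Defa22 showed the same pattern, at 46.4, 18.8 and 59.5 CPM against 501, 554 and 547 CPM, a 12.9-fold difference (log2 fold change 3.69 ± 0.412 SE, edgeR FDR = 0.0165). As the start of both genes is identical, how reads were divided between them is uncertain, and the values of both may follow one source. The other called members were Defa34 (13.6 ± 2.03 CPM in the duodenum and 66.8 ± 10.5 CPM in the jejunum, SD, n = 3), Defa5 (63.2 ± 5.38 and 266 ± 19 CPM) and Defa37 (165 ± 20.4 and 549 ± 32.2 CPM). Their log2 fold changes were 2.30, 2.08 and 1.74, with edgeR FDRs of 0.00756, 0.00719 and 0.0147.

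Of the 31 α-defensin genes in the table, 26 passed the filter of at least 10 counts in at least 3 of the 6 libraries. Of these 26, 5 were called higher and 0 lower, 19 were higher and 0 lower at an unadjusted p below 0.05 (6.05% and 5.29% over all genes), and the median log2 fold change was 1.33, against 0.01 over all genes tested. The same shares over all genes apply to the lists that follow. Calls of higher members numbered 13 in DESeq2 and 11 in limma-voom. With 1 library left out, 16 to 21 members were higher at an unadjusted p below 0.05, and the median lay between 1.19 and 1.54. The members were not uniform. Defa39 was measured at 899, 1040 and 416 CPM in the duodenum and at 694, 959 and 636 CPM in the jejunum, with overlapping groups and a log2 fold change of -0.04 ± 0.35 SE, whose sign changed when single libraries were left out. Defa38 and Defa3 also overlapped between segments, with log2 fold changes of 0.40 and 0.46. Defa20 had the largest fitted change (4.78 ± 0.888 SE, edgeR FDR = 0.091), from 1.89, 24.9 and 26.2 CPM in the duodenum to 258, 543 and 654 CPM, without passing the test. Defa32 was measured at 38.1, 0.0927 and 26 CPM in the duodenum, and its near absence in duodenum replicate 2 set it apart from genes such as Defa37, whose 3 duodenal values were alike. Summed over the family, α-defensins reached 4980, 5130 and 3600 CPM in the duodenum and 11300, 11500 and 9060 CPM in the jejunum (exact permutation test, two-sided, p = 0.1, the smallest that 3 against 3 allows).

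**Figure D2:**
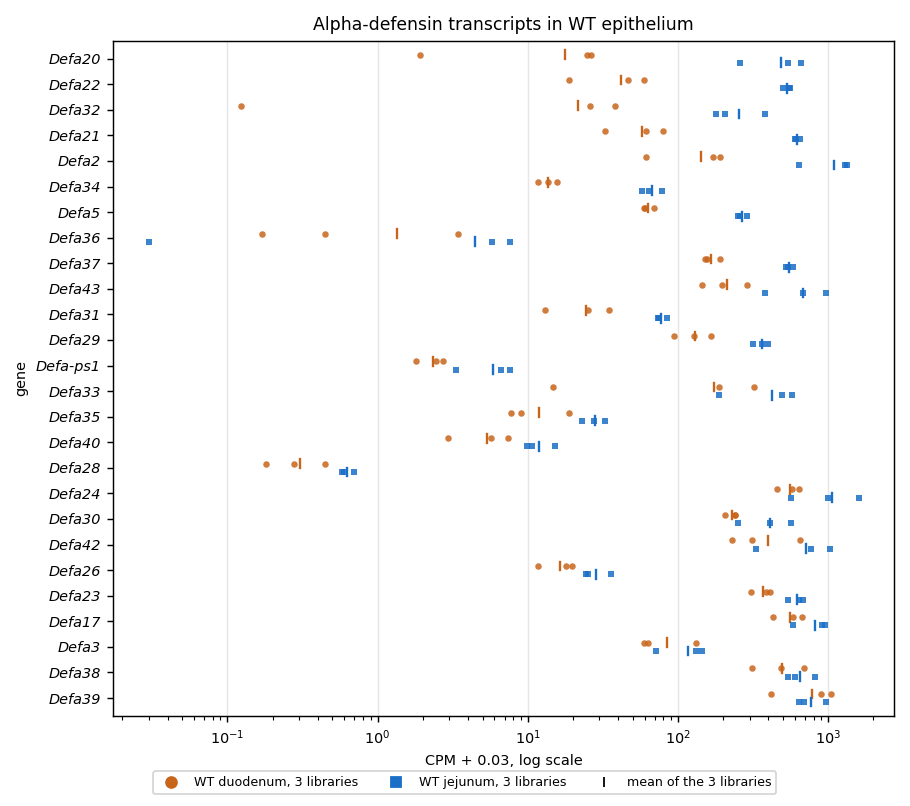
Levels of the 26 α-defensin transcripts tested, in CPM + 0.03 on a log scale, in 3 duodenal (orange circles) and 3 jejunal (blue squares) WT libraries with group means as bars. Genes are ordered by log2 fold change from Defa20 (4.78) at the top to Defa39 (-0.04) at the bottom.

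The other Paneth cell markers had log2 fold changes from 0.51 to 1.26, within the range of the 26 α-defensins tested (-0.04 to 4.78). Ang4, an angiogenin with antimicrobial activity, was measured at 161, 172 and 146 CPM in the duodenum and at 390, 356 and 305 CPM in the jejunum, a log2 fold change of 1.14 ± 0.185 SE that did not pass the test (edgeR FDR = 0.0581). Pla2g2a and Lyz1, the Paneth cell lysozyme, had log2 fold changes of 1.26 and 0.86. Of the 5 Paneth cell markers 0 were called by edgeR, 3 were higher at an unadjusted p below 0.05 (5 without duodenum replicate 2 and 2 without jejunum replicate 1), the median was 0.86, and DESeq2 called 2 and limma-voom 1. Their summed level was 3260 to 4250 CPM in the duodenum and 5480 to 7520 CPM in the jejunum. Whether α-defensin transcripts rose beyond the Paneth cell markers was not tested.

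Antimicrobial proteins other than α-defensins moved in both directions. Of 22 tested, 1 was called higher and 1 lower, and 8 were higher and 3 lower at an unadjusted p below 0.05, with a median log2 fold change of 0.59. Nos2, the inducible nitric oxide synthase (chromosome 11, 78920787 to 78960226), was the member that rose, from 8.42, 7.51 and 12.2 CPM to 34, 46.1 and 45.9 CPM. The groups were well apart, at a 4.49-fold difference (log2 fold change 2.17 ± 0.246 SE, edgeR FDR = 0.0165). Duox2 and its maturation factor Duoxa2, which make hydrogen peroxide at the brush border, had log2 fold changes of 1.57 ± 0.383 and 1.81 ± 0.424 (edgeR FDR = 0.181 and 0.164). Reg3g, a lectin that binds Gram-positive bacteria, was measured at 546, 352 and 692 CPM in the duodenum and at 1500, 1210 and 1260 CPM in the jejunum (log2 fold change 1.32 ± 0.277 SE, edgeR FDR = 0.123). Reg1 (chromosome 6, 78425983 to 78428668), a secreted lectin of the same family, went the other way. It fell from 191, 147 and 97.4 CPM to 14.4, 21.1 and 15.8 CPM, an 8.44-fold difference with no overlap (log2 fold change -3.08 ± 0.299 SE, edgeR FDR = 0.00974).

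The other genes that rose belong to no single list. Plb1, a brush border phospholipase B that releases fatty acids from phospholipids and retinyl esters, had the largest log2 fold change of the called genes (5.19 ± 0.758 SE, edgeR FDR = 0.0461). It was measured at 0.697, 0.973 and 3.29 CPM in the duodenum and at 26, 46.8 and 113 CPM in the jejunum. Its jejunal libraries varied widely, and the highest was jejunum replicate 3. Slc5a8, a sodium-coupled transporter of lactate and short-chain fatty acids (chromosome 10, 88885992 to 88929515), lay at 4.93, 5.05 and 5.18 CPM and rose to 25.8, 35.5 and 39.9 CPM (6.69-fold, log2 fold change 2.74 ± 0.22 SE, edgeR FDR = 0.00719). Fam151a rose 9.42-fold, Mboat1, an acyltransferase of lysophospholipids, 3.48-fold, Map3k6, a stress-activated kinase, 2.89-fold, and Gsn, the actin-severing protein gelsolin, 2.31-fold. An identifier without a symbol, ID13240, rose from 247, 176 and 203 CPM to 529, 505 and 510 CPM (2.48-fold). The remaining genes called higher were named after their values were seen and were low in both segments. They were Rhoj, Prickle2 (a planar polarity protein), Tceal8, Adcy8 (an adenylyl cyclase), Ddah1 (which degrades an inhibitor of nitric oxide synthases) and Capn2 (a calpain), whose jejunal means were 2.15, 1.43, 4.77, 8.04, 7.81 and 6.91 CPM.

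The hormones Pyy and Fgf15 were at the edge of detection in the duodenum. Pyy, the satiety peptide of L cells, was measured at 0.199, 0.556 and 0.491 CPM and rose to 3.04, 4.74 and 2.87 CPM (log2 fold change 3.07 ± 0.419 SE, edgeR FDR = 0.0354). Fgf15, the gut hormone that represses bile acid synthesis in the liver, had 0, 0 and 1 counts in the duodenal and 15, 20 and 10 counts in the jejunal libraries. That is a ratio of 37.7, with a 95% counting interval of 6.43 to 1520 that covers counting error only, and it passed the test (edgeR FDR = 0.0461). Pyy was the only one of 14 enteroendocrine markers to be called by edgeR (DESeq2 called 3 and limma-voom 2 of them). At an unadjusted p below 0.05, 3 of the 14 were higher and 1 was lower. The log2 fold change was positive in 8 of them and negative in 6, with the lowest at -0.86. Glucagon (Gcg) and neurotensin (Nts), which are also peptides of distal endocrine cells, had log2 fold changes of 0.81 ± 0.173 and 1.17 ± 0.221 without passing (edgeR FDR = 0.127 and 0.0972), and the median over the list was 0.11. Chga, the general endocrine marker, overlapped between the segments at 25.8 to 64.3 and 54.2 to 81.1 CPM. Of the 10 genes of ileal bile acid uptake and signalling, edgeR called 1 higher (Fgf15) and 0 lower, with 2 in each direction at an unadjusted p below 0.05 (4 higher without duodenum replicate 2), while DESeq2 called 1 higher and 2 lower and limma-voom 2 higher and 1 lower. Nr0b2, a repressor of bile acid synthesis, was measured at 0.529 to 0.973 CPM in the duodenum and 0.0634 to 0.166 CPM in the jejunum (edgeR FDR = 0.0636), and Abcc2, an export pump, at 62.6 to 91.8 and 31.1 to 47.9 CPM (edgeR FDR = 0.251). The uptake transporter Slc10a2 lay at 0.0498 to 0.927 CPM in the duodenum and 0.885 to 1.17 CPM in the jejunum, far below its 38.4 and 43.8 CPM in the WT ileum.

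Genes of fatty acid oxidation, which yields energy from absorbed and stored fat, lay mostly lower in the jejunum. Of the 22 tested genes of peroxisomal and mitochondrial fatty acid oxidation, 1 was called lower and 0 higher, while 14 were lower and 0 higher at an unadjusted p below 0.05, and the median log2 fold change was -0.56. Acaa2, the last enzyme of the mitochondrial spiral, was measured at 120, 183 and 117 CPM and at 45.3, 66.6 and 46.8 CPM (edgeR FDR = 0.0868), and Pdk4, a kinase that holds back pyruvate oxidation, had a log2 fold change of -3.21 ± 0.584 SE (edgeR FDR = 0.0857). Cpt1a, which carries fatty acids to the mitochondrion, and Hadha, a subunit of the trifunctional protein, had log2 fold changes of -0.40 and -0.56. DESeq2 called 7 and limma-voom 4 members lower.

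Of the enzymes that handle foreign compounds, most lay lower in the jejunum, though few passed the test. Of 31 tested genes of conjugation, ester hydrolysis and efflux, 2 were called lower (Ces1f and Ugt2b5) and 0 higher, 23 were lower and 0 higher at an unadjusted p below 0.05, and the median log2 fold change was -1.11. Ces1f, a carboxylesterase (chromosome 8, 93256236 to 93279766), fell from 122, 201 and 89 CPM to 17, 28 and 19.1 CPM, a 6.4-fold difference without overlap (log2 fold change -2.68 ± 0.35 SE, edgeR FDR = 0.0307). Ugt2b5, a glucuronosyltransferase, fell from 18.3, 22.3 and 13 CPM to 3.55, 4.11 and 3.7 CPM (edgeR FDR = 0.0165). The glutathione transferases Gstm3 and Gsta1 had log2 fold changes of -1.55 and -1.64, and the carboxylesterase Ces2c, which is abundant in the gut, of -1.96, none of them past the test. DESeq2 called 14 and limma-voom 5 of these genes lower. With 1 library left out, 19 to 24 members were lower at an unadjusted p below 0.05. In the cytochrome P450 list of 22 tested enzymes 0 were called by edgeR or limma-voom and 5, all lower, by DESeq2, while 13 were lower and 0 higher at an unadjusted p below 0.05, with a median of -0.86. This count fell to 7 without jejunum replicate 1 and to 8 without duodenum replicate 2, and the median then was -0.61 and -0.57. Cyp3a11, the main drug-oxidizing enzyme of its family in mice, was measured at 69.2, 137 and 48.4 CPM in the duodenum and at 3.93, 14.4 and 30.8 CPM in the jejunum (log2 fold change -2.38 ± 0.693 SE, edgeR FDR = 0.278). The spread within each segment was wide for this enzyme, and the same was true of Cyp1a1 (3.66 to 22.5 and 0.0317 to 0.979 CPM) and Cyp2b10 (50.9 to 201 and 3.87 to 34 CPM). Carboxylesterases, glucuronosyltransferases and P450 enzymes are families of near-identical copies in clusters, so that the share of reads given to each member is uncertain.

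Further called genes act on similar substrates without being members of these lists. Ces1e, another carboxylesterase, fell from 34, 36 and 26.2 CPM to 8.05, 10.5 and 7.52 CPM. Aadac, an ester-cleaving deacetylase, fell from 107, 145 and 122 CPM to 42.5, 42.6 and 30.3 CPM. Sult6b2, a member of the sulfotransferase family, showed the largest fall of the called genes, from 21.9, 14.4 and 6.84 CPM to 0.317, 0.853 and 0.442 CPM (log2 fold change -4.70 ± 0.549 SE, edgeR FDR = 0.0176). In all of them each jejunal library lay below each duodenal one. Akr1c13, an aldo-keto reductase, fell 3.20-fold, and Cyp2e1, the ethanol-oxidizing P450 enzyme, which was named after its values were seen, fell 8.39-fold at 0.38 to 0.6 CPM in the jejunum.

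Genes of retinoid metabolism, which turns dietary vitamin A into retinal and retinoic acid, showed the same direction. Of 14 tested, 1 was called lower (Adh4) and 0 higher, 8 were lower and 0 higher at an unadjusted p below 0.05, and the median log2 fold change was -1.03. Adh4, an alcohol dehydrogenase that oxidizes retinol, fell from 8.27, 11.5 and 5.74 CPM to 0.634, 1.64 and 0.995 CPM (7.71-fold, edgeR FDR = 0.0433). Adh1, the more general alcohol dehydrogenase, was measured at 219, 304 and 125 CPM in the duodenum and at 15.1, 42.6 and 36.2 CPM in the jejunum, with no overlap (log2 fold change -2.78 ± 0.46 SE, edgeR FDR = 0.0588). Aldh1a1, which makes retinoic acid from retinal, had a log2 fold change of -2.07 ± 0.502 SE, Rdh7, a retinol dehydrogenase, of -2.15 ± 0.628 SE, and Retsat, which saturates retinol, of -1.04 ± 0.244 SE. DESeq2 called 5 and limma-voom 2 members of the list lower.

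Among the 14 genes of iron uptake and export, Epas1 was the one called by edgeR (DESeq2 called 2 lower and limma-voom 1), at 26.9, 24.1 and 14.9 CPM in the duodenum and 6.46, 6.38 and 7.13 CPM in the jejunum (log2 fold change -1.72 ± 0.252 SE, edgeR FDR = 0.0461). It encodes HIF-2α, the hypoxia-inducible factor known to switch on iron uptake genes in enterocytes. Of its known targets, the iron importer Slc11a2 (60.9, 87.1 and 57.4 against 41.4, 43.6 and 31.5 CPM) and the exporter Slc40a1 (81.3, 49.8 and 38.8 against 34.2, 33 and 20.3 CPM) lay lower in every jejunal library without passing the test (edgeR FDR = 0.265 and 0.359). Cybrd1, the ferric reductase, went the other way at 2.3 to 2.39 and 2.81 to 4.34 CPM (log2 fold change 0.62 ± 0.261 SE), and Heph, the ferroxidase of export, overlapped at 144 to 159 and 127 to 163 CPM. The heme and folate carrier Slc46a1 had a log2 fold change of -2.00 ± 0.609 SE. At an unadjusted p below 0.05, 1 member was higher and 4 were lower, and the median was -0.21.

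Genes of nutrient uptake changed less evenly. Of 30 genes of fat absorption, edgeR called 1 higher (Plb1) and 0 lower, DESeq2 1 in each direction and limma-voom 1 higher. At an unadjusted p below 0.05, 1 was higher and 8 were lower, and the median log2 fold change was -0.53. The count of lower members depended on single libraries: it was 5 without duodenum replicate 1, 3 without duodenum replicate 2 or jejunum replicate 1, 4 without jejunum replicate 3 and 12 without duodenum replicate 3, and the median ranged from -0.76 to -0.16. Fabp1, the liver-type fatty acid binding protein, was measured at 551, 1290 and 541 CPM in the duodenum and at 71.1, 419 and 294 CPM in the jejunum (edgeR FDR = 0.408). Mttp, which loads fat onto apolipoprotein B, and the fatty acid receptor Cd36 had log2 fold changes of -0.82 and -1.39. Of 17 genes of sugar digestion and uptake 0 were called by edgeR or limma-voom and 1, lower, by DESeq2, with 1 higher and 4 lower at an unadjusted p below 0.05 (2 lower without duodenum replicate 1 or 2, and 6 and 7 without duodenum replicate 3 and jejunum replicate 2). Mgam, the maltase, had a log2 fold change of 0.90 ± 0.27 SE and the fructose transporter Slc2a5 of -1.61 ± 0.529 SE, while sucrase-isomaltase (Sis), lactase (Lct) and the glucose transporter Slc5a1 overlapped between the segments. Of 23 tested genes of amino acid and peptide absorption edgeR called 0 (2 higher and 2 lower at an unadjusted p below 0.05), and DESeq2 and limma-voom 1 each, lower. Tmprss15, the enteropeptidase that activates trypsinogen, had 59, 33 and 11 counts in the duodenal libraries and 0 in the jejunal ones, so that its level was at least 9.82-fold lower in the jejunum by the limit that 3 counts per library set. Of the glutamate transporters, Slc1a3, which was in none of the lists, fell from 39.1, 31 and 38.7 CPM to 11.5, 10.6 and 10.3 CPM (edgeR FDR = 0.0111).

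Minerals and ions showed single large differences. S100g, the calcium-binding protein calbindin of the duodenum, was measured at 9.47, 4.68 and 1.1 CPM in the duodenum and at 0.19, 0.537 and 0.166 CPM in the jejunum, and Slc34a2, the phosphate transporter, at 9.52, 20.3 and 9.71 CPM and at 33.4, 87 and 100 CPM. Neither passed the test (edgeR FDR = 0.122 and 0.0991), although the groups did not overlap. Of 9 calcium and vitamin D genes 0 were called by edgeR (2 higher and 1 lower at an unadjusted p below 0.05), against 1 in each direction by DESeq2 and 1 higher by limma-voom. Slc13a1, a sulfate transporter, was measured at 69.5, 91.5 and 34.6 CPM and at 11.5, 15.5 and 11.6 CPM (edgeR FDR = 0.0508), and guanylin (Guca2a), a peptide that stimulates chloride secretion, had a log2 fold change of 1.29 ± 0.219 SE (edgeR FDR = 0.0643). Of 25 ion transport genes edgeR called 0, while 3 were higher and 5 lower at an unadjusted p below 0.05. The calls of DESeq2 were 1 higher and 2 lower, and limma-voom had 1 in each direction. Cholesterol synthesis genes showed small differences: of 24, 0 were called by edgeR, DESeq2 or limma-voom, 1 was higher at an unadjusted p below 0.05, and the median was 0.04.

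Fras1, an extracellular matrix protein of basement membranes, and Pcsk6, a proprotein convertase, are not known as absorption genes and fell too. Fras1 went from 13.4, 17.5 and 11.8 CPM to 1.58, 1.89 and 1.93 CPM (log2 fold change -2.98 ± 0.247 SE, edgeR FDR = 0.00719), and Pcsk6 from 24, 22.4 and 17.1 CPM to 2.09, 3.98 and 2.71 CPM (log2 fold change -2.84 ± 0.29 SE, edgeR FDR = 0.0111). Pbld1 fell 5.61-fold. Gkn3, a gastrokine of the gastric marker list, fell from 5.38, 6.67 and 4 CPM to 0.95, 1.26 and 1.11 CPM (edgeR FDR = 0.0307). The gastric list was at 6.08 to 11.2 CPM in sum in the duodenum and 1.46 to 2.24 CPM in the jejunum, 5 of its 10 members were at 0 in all 6 libraries, and whether stomach or Brunner's gland cells took part in the fall of Gkn3 was not tested. The Brunner's gland genes Muc6 and Tff2 did not exceed 0.464 CPM. The last genes called lower, named after their values were seen, were Slc37a2 (a sugar phosphate exchanger), Slc38a4 (a neutral amino acid transporter) and Piwil2 (a protein that binds small RNAs in germ cells), all below 1 CPM in every jejunal library.

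Regional transcription factors did not pass the test in edgeR, though several were arranged by segment. Of 36 tested, 0 were called, 8 were higher and 6 lower at an unadjusted p below 0.05, and the median log2 fold change was 0.37, while DESeq2 called 3 in each direction and limma-voom 2 higher and 1 lower. Pdx1 had a log2 fold change of -5.31 ± 0.886 SE (edgeR FDR = 0.0605), and its duodenal level differed widely between libraries. The same was true of Meis2, a homeobox gene, at 5.83, 1.85 and 0.642 CPM against 0.412, 0.442 and 0.387 CPM. Onecut2, known as a factor of the proximal intestine, was measured at 96.8, 24.9 and 52.5 CPM in the duodenum and at 19.1, 19.4 and 24.2 CPM in the jejunum (edgeR FDR = 0.279). In the other direction lay Osr2, a zinc finger factor, at 13, 12.8 and 22.9 CPM against 37.4, 46.3 and 74.7 CPM, with a log2 fold change of 1.70 ± 0.337 SE (edgeR FDR = 0.108). Gata4, which keeps the proximal small intestine distinct from the ileum, was at 133 to 211 CPM in the duodenum and at 117 to 141 CPM in the jejunum, with overlapping groups, against 35.3 and 29.9 CPM in the WT ileum. Hnf4a differed by a log2 fold change of 0.07 ± 0.179 SE.

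Btnl2 itself (chromosome 17, 34354789 to 34369492) was measured at 46.5, 65.8 and 39.5 CPM in the duodenum and at 25.7, 51.9 and 48.2 CPM in the jejunum. The groups overlapped, and the log2 fold change was -0.27 ± 0.309 SE (edgeR FDR = 0.702). In the WT ileum it was at 26.3 and 25.1 CPM. Some butyrophilin-like genes are known to shape intraepithelial lymphocytes. Of the 5 butyrophilin-like genes tested, 0 were called by edgeR, DESeq2 or limma-voom and 0 reached an unadjusted p of 0.05. The log2 fold changes ran from -0.48 (Btnl1) to -0.11 (Btnl4). Those of Btnl4 and Btnl6 changed sign in limma-voom or without a single library.

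Genes of MHC class II presentation lay higher in the jejunum, with 0 calls in edgeR. Of 8 tested, 7 were higher at an unadjusted p below 0.05 (6.05% over all genes), and the median log2 fold change was 1.19. In each of these 7 the jejunal libraries lay above the duodenal ones (10% over all genes), which rests on the same values. H2-Aa, a chain of the class II molecule, was measured at 55, 40.6 and 45 CPM and at 116, 180 and 114 CPM (log2 fold change 1.55 ± 0.242 SE, edgeR FDR = 0.0525). Ciita, the class II transactivator, had a log2 fold change of 1.64 ± 0.37 SE and Cd74, the invariant chain, of 1.49 ± 0.359 SE. DESeq2 called 7 and limma-voom 3 of them. Myeloid and lymphoid cells also express these genes: the 11 myeloid markers summed to 31.6 to 35.4 CPM in the duodenum and to 57.4 to 58.6 CPM in the jejunum, the 15 T cell genes to 189 to 402 and 155 to 485 CPM, and the B cell genes to 5.93 to 7.18 and 4.09 to 9.07 CPM. Of 9 myeloid genes tested, 6 had a positive and 3 a negative log2 fold change (median 0.16, from -0.12 to 0.78 with 1 library left out). Of 15 T cell genes, 13 were positive and 2 negative (median 0.58). At an unadjusted p below 0.05 in edgeR, 4 T cell genes were higher and 0 lower, and 1 to 9 were higher with 1 library left out. The part of these cells in the difference was not tested. Stromal genes were near 0, at 0.869 to 2.99 CPM in sum. Erythroid genes summed to 9.91 to 17.3 CPM in the duodenum and 3.07 to 7.13 CPM in the jejunum.

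The gasdermins, which form membrane pores, were higher at an unadjusted p below 0.05 in 5 of 7 members (median log2 fold change 0.99), with 0 calls in edgeR, 4 in DESeq2 and 1 in limma-voom. Gsdmc2 and Gsdmc4, near-identical copies, had log2 fold changes of 1.13 and 0.99. Interferon-induced genes showed no call, with 3 of 24 higher and 0 lower at an unadjusted p below 0.05, a median of -0.10 whose sign changed in limma-voom and without single libraries, and 0 calls in edgeR, DESeq2 and limma-voom.

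Goblet cell markers were higher at an unadjusted p below 0.05 in 4 of 8 genes (median log2 fold change 0.66), with 0 calls in edgeR, 3 in DESeq2 and 1 in limma-voom. Muc2, the mucin of the gut, was measured at 654, 617 and 874 CPM in the duodenum and at 1550, 1290 and 1810 CPM in the jejunum (log2 fold change 1.12 ± 0.237 SE, edgeR FDR = 0.126). Tuft cell markers were lower at an unadjusted p below 0.05 in 5 of 7 genes (median -0.92; 2 genes without jejunum replicate 1, and 3 without jejunum replicate 2, jejunum replicate 3 or duodenum replicate 1), with 0 calls in edgeR and limma-voom and 1 in DESeq2, and Trpm5, a cation channel of taste signalling, was at 13.1, 12.8 and 6.91 CPM and at 5.32, 6.47 and 4.31 CPM. Enterocyte markers were lower in 3 of 10 at that p (median -0.29; 0 without duodenum replicate 2 and 1 without jejunum replicate 1), cell cycle genes in 0 of 22 (median -0.07) and crypt stem cell genes in 2 of 9 (median -0.01), with 0 calls in any tool. Villus tip genes were higher in 3 and lower in 1 of 10 at that p (2 calls, higher, in DESeq2 and 0 in edgeR and limma-voom), and genes of follicle-associated and M cells in 1 each of 6 (0 calls in any tool). The summed cell cycle level was 1940 CPM in duodenum replicate 2 and 2550 to 3270 CPM in the other 5 libraries.

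**Figure D3:**
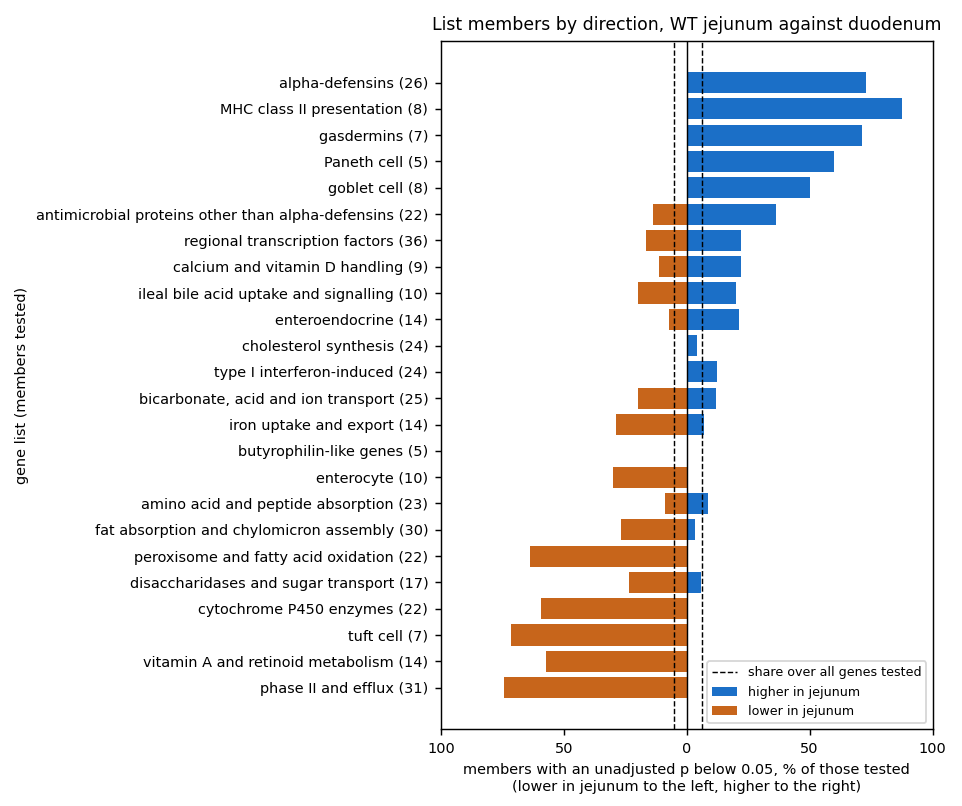
Share of the tested members of each list with an unadjusted p below 0.05 in edgeR, to the right for genes higher and to the left for genes lower in the jejunum. Dashed lines mark the shares over all 12505 genes (6.05% higher and 5.29% lower), and lists are ordered by median log2 fold change from conjugation and efflux (-1.11) to α-defensins (1.33).

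The 2 WT ileal libraries, which took no part in the choice of the called genes, were set beside the segments without a test. The share of all genes tested with such a position was not counted, so the counts below have no baseline. Of the 21 genes that rose, 13 were higher still in both ileal libraries than in any jejunal one, 7 overlapped with the jejunum (Plb1, Fam151a and the 5 α-defensins), and 1 (ID13240) lay below it. Nos2 reached 124 and 123 CPM in the ileum and Slc5a8 122 and 115 CPM. Of the 19 genes that fell, 10 were lower still in the ileum, among them Reg1 (1.26 and 1.64 CPM) and Aadac (3.44 and 3.06 CPM), 5 overlapped, and 4 (Cyp2e1, Piwil2, Ugt2b5 and Epas1) were higher again. Epas1 was the one gene of these 40 whose ileal libraries, at 22.4 and 20.3 CPM, lay within the range of the duodenum.

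**Figure D4:**
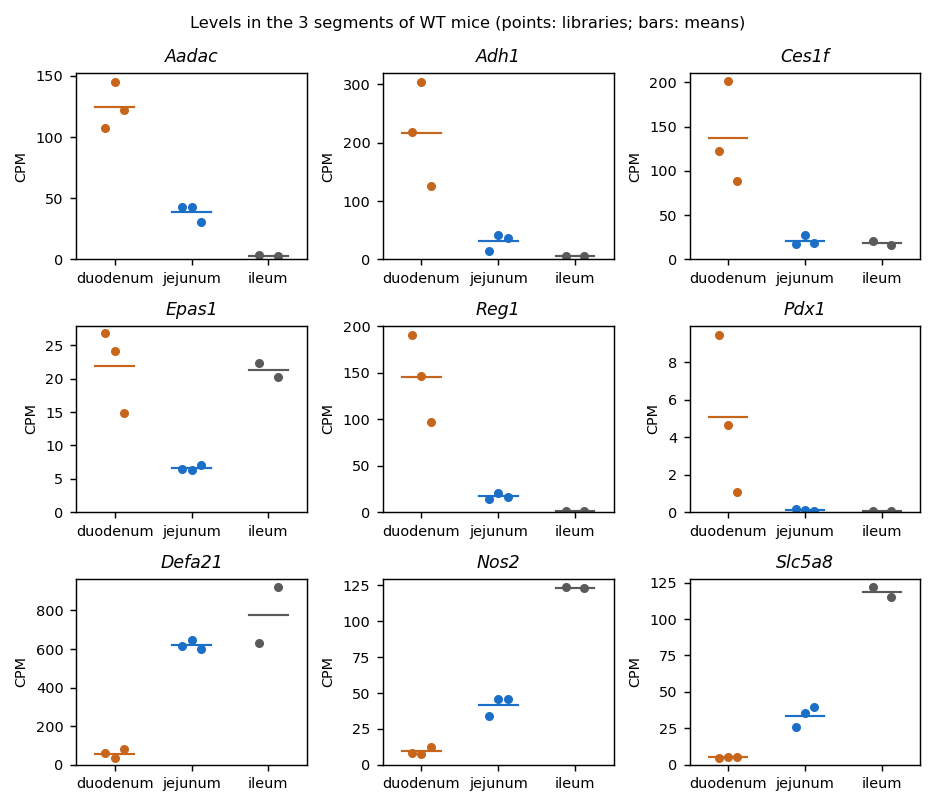
CPM of 9 genes in the duodenum (3 libraries), jejunum (3) and ileum (2) of WT mice, one panel per gene with its own y axis from 0; points are libraries and bars are means. Aadac, Adh1, Ces1f, Reg1 and Pdx1 stay low beyond the duodenum, Epas1 is low in the jejunum alone, Nos2 and Slc5a8 are highest in the ileum, and Defa21 overlaps between the jejunum and ileum.

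KO mice gave a second set of duodenal and jejunal libraries that did not enter the WT comparison. In 3 of the 8 KO libraries of the table, Fabp6 went against the segment label: the library labelled duodenum KO replicate 1 was at 221 CPM, that labelled jejunum KO replicate 2 at 469 CPM, and that labelled ileum KO replicate 1 at 0.239 CPM. Onecut2 lay at 2.74, 13.7 and 130 CPM in them, against 19.1 to 24.2 CPM in the WT jejunum and 0.259 and 0.437 CPM in the WT ileum. By Onecut2, jejunum KO replicate 2 was thus nearer to the jejunum than to the ileum. Whether any of the 3 was mislabelled was not tested. With all libraries as labelled, edgeR called 0 genes between KO jejunum and KO duodenum (1216 at an unadjusted p below 0.05), and 29 of the 40 genes had the sign of the WT change. Without those 3 libraries, 2 jejunal libraries and 1 duodenal KO library remained, and the duodenal one was assumed to vary like the other groups. Fabp6 differs along the segments, as do many of the 40 genes. Leaving libraries out by Fabp6 therefore favours the WT sign in itself. In that fit 40 of the 40 genes had the WT sign (64.8% of all genes tested did), and 18 were called, of 35 calls in all (0.28%). The log2 fold change in KO mice was -3.79 for Reg1, 3.89 for Slc5a8 and 2.40 for Defa5. Capn2, at 0.51, and Aadac, at -0.77, had the smallest log2 fold changes among the genes higher and lower in WT mice. With all libraries as labelled, the difference between genotypes was called for 0 genes in edgeR (772 at an unadjusted p below 0.05), which does not show that the genotypes are alike.

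**Figure D5:**
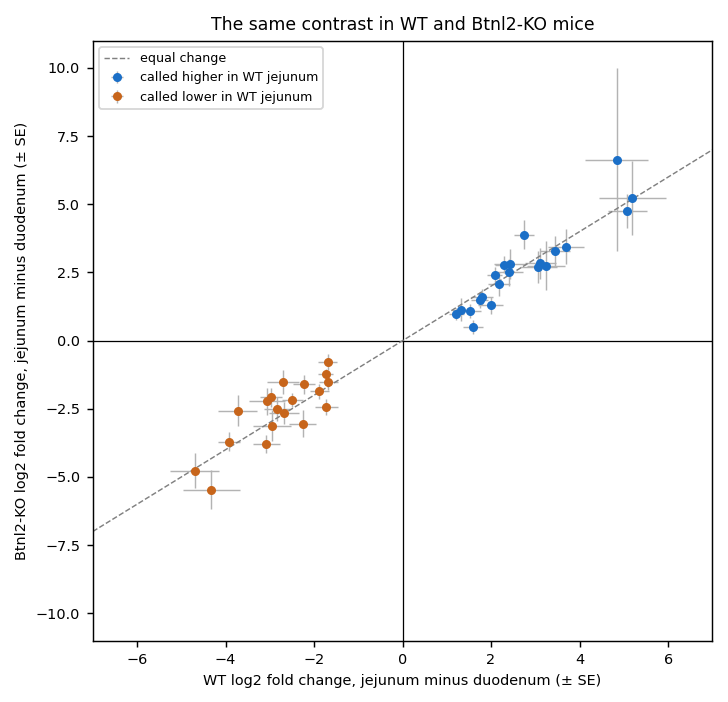
Log2 fold change between jejunum and duodenum in WT mice (x axis) and in Btnl2-KO mice without the 3 libraries whose Fabp6 level went against the label (y axis), each ± SE, for the 40 genes called in WT mice. All 40 points lie in the lower left or upper right, which leaving out those libraries favours, and the dashed line marks equal change.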

How the data were processed

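RNA-seq of intestinal epithelial cell fractions was used. The authors deposited expected counts per gene (RSEM, estimated from reads on exons), which were rounded to whole numbers here, since 14.9% of the values were not whole. The labels name a stranded mRNA kit and GRCm38, and the study's methods a low-input kit and a customized mouse genome, so kit and build are uncertain. Of 24475 identifiers, 100 had no symbol (3.41 to 6.84% of counts in the 6 libraries), and these were kept. Replicates were compared first, and none of the 6 pairs within a group was a duplicate.

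Genes with at least 10 counts in at least 3 of the 6 libraries were tested with edgeR 4.0.16 (R 4.3.3, TMM, quasi-likelihood F test, no covariate), with Benjamini-Hochberg adjustment over all 12505 genes, and called at an adjusted p below 0.05 and a fold above 1.5. Limma 3.58.1 (voom with quality weights) and DESeq2 1.42.0 were among 19 alternative settings. The fits were tested on simulated data. Exact permutation tests were two-sided, and intervals and floors cover counting error only. The text names, in each direction, the 12 called genes with a symbol, no overlap between segments and a mean of at least 5 CPM over the 6 libraries that had the largest fold, the 6 called genes with the largest difference in mean CPM, members of the gene lists, and Btnl2. The members and lists were chosen with earlier results of these data known. Promoters and gene positions are from RefSeq, GRCm38.p6. Some genes that count in the totals are not reported here.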

Additional observations from a re-analysis of the deposited data

How the results depend on the processing

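Of the main count of 21 genes higher and 19 lower, DESeq2 on 17711 genes gave 173 and 152, limma-voom 88 and 64, no filter on low counts 53 and 50, all 8 WT libraries in one fit 62 and 42, and a T cell covariate 22 and 50 (33 of the 40 shared). All 16 libraries in one fit gave 0 and 0 (1685 at an unadjusted p below 0.05). Settings added after seeing the data gave 203 and 154 (cell cycle covariate) and 146 and 95 (13 libraries, without the 3 whose Fabp6 level went against the label). Leaving out 1 library gave 0 to 37 higher and 0 to 36 lower: 0 and 1 without duodenum replicate 1, 37 and 36 without duodenum replicate 2, 18 and 32 without duodenum replicate 3, 6 and 2 without jejunum replicate 1, 6 and 5 without jejunum replicate 2, and 0 and 0 without jejunum replicate 3. The cause of these shifts was not tested. RLE (21 and 20), upper quartile (22 and 20), filterByExpr and no fold minimum (21 and 19 each) and leaving out identifiers without a symbol (19 and 19) stayed within 1.5 times. The KO count went from 0 with 16 libraries to 35 with 13. Over 759 values of the 40 genes under these settings, 555 kept their side of the threshold, 204 lost the call and 0 changed sign. With no overlap between the segments in these genes, a change of sign was unlikely from the start. The log2 fold change of Btnl2 ranged from -0.61 (T cell covariate) to -0.01 (without jejunum replicate 1) and was not called under any setting. No paired analysis was possible because the labels of these groups share no replicate numbers and do not say which animal gave which library.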
